A study of Mus musculus with 15 samples.

Results

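Milk fat is assembled in the secretory cell from fatty acids that the cell makes itself and from fatty acids that it takes up, which are joined to glycerol, stored as cytoplasmic droplets and released wrapped in apical membrane as milk fat globules. The genes described here cover that route. They comprise 36 named genes for fatty acid synthesis, desaturation and elongation, uptake and activation, assembly of triacylglycerol, and coating and secretion of the droplet. They were listed by their function, and the list uses no measured value, though it was chosen with earlier results of these data known. Of the 36 genes, 35 had a probe set of their own on the array, and all 35 were bright enough to be among the 12143 genes tested. Acsl1 was not analysed here. Where a gene had several probe sets, the one that was brightest on average (mean log2 over the 15 arrays) stands for it.

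The lipogenic part of the route starts from citrate and acetate, runs through malonyl-CoA to a long saturated chain on fatty acid synthase, and in mammary cells can be cut short by a separate thioesterase to give the medium-chain fatty acids typical of milk. Lipids from the blood enter after lipoprotein lipase has released their fatty acids, and binding proteins and acyl-CoA synthetases pass them on. Droplet coat proteins and a pair of membrane partners, butyrophilin and xanthine dehydrogenase, are known for their part in globule release.

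Transcripts were measured in 5 populations of mammary epithelial cells from C57BL/6 female mice, with 3 arrays for each population and 15 in all. Alveolar luminal cells (AL) were the lineage-negative cells carrying yellow fluorescent protein (YFP) in Wap-Cre;R26Y mice at midgestation. The virgin females of that genotype gave cells with the same mark, labelled alveolar luminal stem/progenitor cells (ALP). Wildtype adult virgin females gave the other populations, all of them sorted from each of 3 cell suspensions. They were a basal population enriched in mammary stem cells (MaSC, CD24 positive with high CD29), luminal progenitors and mature luminal cells. Luminal progenitors (LP) had high CD24, low CD29 and CD61. Mature luminal cells (ML) were as LP but without CD61. The comparisons ask how marked cells of pregnancy differ from each virgin population and how the virgin populations differ among themselves in the genes of milk fat.

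In Wap-Cre mice, Cre is driven by the promoter of a milk protein gene, and the R26Y reporter stays on in all descendants of a cell that once expressed Cre. The AL population is thus defined by past activity of a milk gene promoter, and genotype and pregnancy both separate it from LP, ML and MaSC. Of the comparisons with AL, only that with ALP is within 1 genotype. No source used here states that the replicates of AL or of ALP were different mice, and a p-value then covers nothing beyond the spread among these arrays.

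Array medians were 136.8 to 209.9 intensity units, highest in ALP replicate 3. Correlations between replicates, taken across genes, which are not independent replicates, were 0.984 to 0.989 within AL, 0.976 to 0.986 within LP, 0.979 to 0.983 within ML, 0.943 to 0.973 within MaSC and 0.901 to 0.97 within ALP. ALP replicate 3 stood apart. Summed intensities of 15 leukocyte markers were 77760 in that array, against 2979 and 3628 in the other ALP arrays, 4354 to 6274 in AL and 642 to 1456 in LP. Of 14 endothelial markers, the sum was 37310 in ALP replicate 3 and 4775 and 8819 in the other ALP arrays. Summed intensities of 11 milk protein genes were 87820 to 103000 in AL and 28820 to 36910 in ALP. In MaSC, LP and ML they were 12390 to 29810. Of 10 tested by limma, 7 were higher and 1 lower in AL than in LP (21.3% and 24.2% of all genes tested). Against ALP, 7 were higher and 1 lower (18.7% and 21.2%). In LP against ML, 8 were higher and 0 lower (27.3% and 21.7%). Which of the 10 were tested only because of AL was not determined. The casein gene Csn2 had intensities of 14252, 15065 and 14805 in AL, against 97.1 to 1198 in ALP and at most 136 in the MaSC, LP and ML arrays. Luminal keratin Krt8 was bright in every array, from 12949.5 to 16476. Krt14, a basal keratin, had 3232 to 4365 in AL, against 535 to 798 in LP and 13007 to 13476 in MaSC. By limma, 10 of 14 basal markers were higher in AL than in LP, where 21.3% of all genes tested were. The part of basal cells in the results below was not tested. In such bulk samples, fewer cells of a type and less RNA per cell cannot be told apart.

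Among the 35 milk fat genes, 33 differed among the 5 populations by limma's moderated F test at an adjusted p under 0.05, against 84.7% of all genes tested. Elovl1 and Acsl4 did not pass (limma F test, adjusted p = 0.349 and 0.401). The highest population mean lay in AL for 21 of the 35 genes, in LP for 7, in ML for 6 and in MaSC for 1, and the lowest in MaSC for 13, in ML for 13, in LP for 8 and in AL for 1. The same ranks were not counted over all genes tested, so these counts have nothing to be read against. In 11 genes all 3 AL arrays were above all 12 other arrays, where 12.9% of all genes tested were. These were Fabp3, Thrsp, Olah, Acaca, Acly, Elovl6, Fads1, Fads2, Srebf1, Acsl3 and Xdh. Of these, Thrsp was tested only because its AL arrays were above the array median. Dgat2 alone had all 3 AL arrays below the other 12, where 10.8% of all genes tested did.

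**Figure D1:**
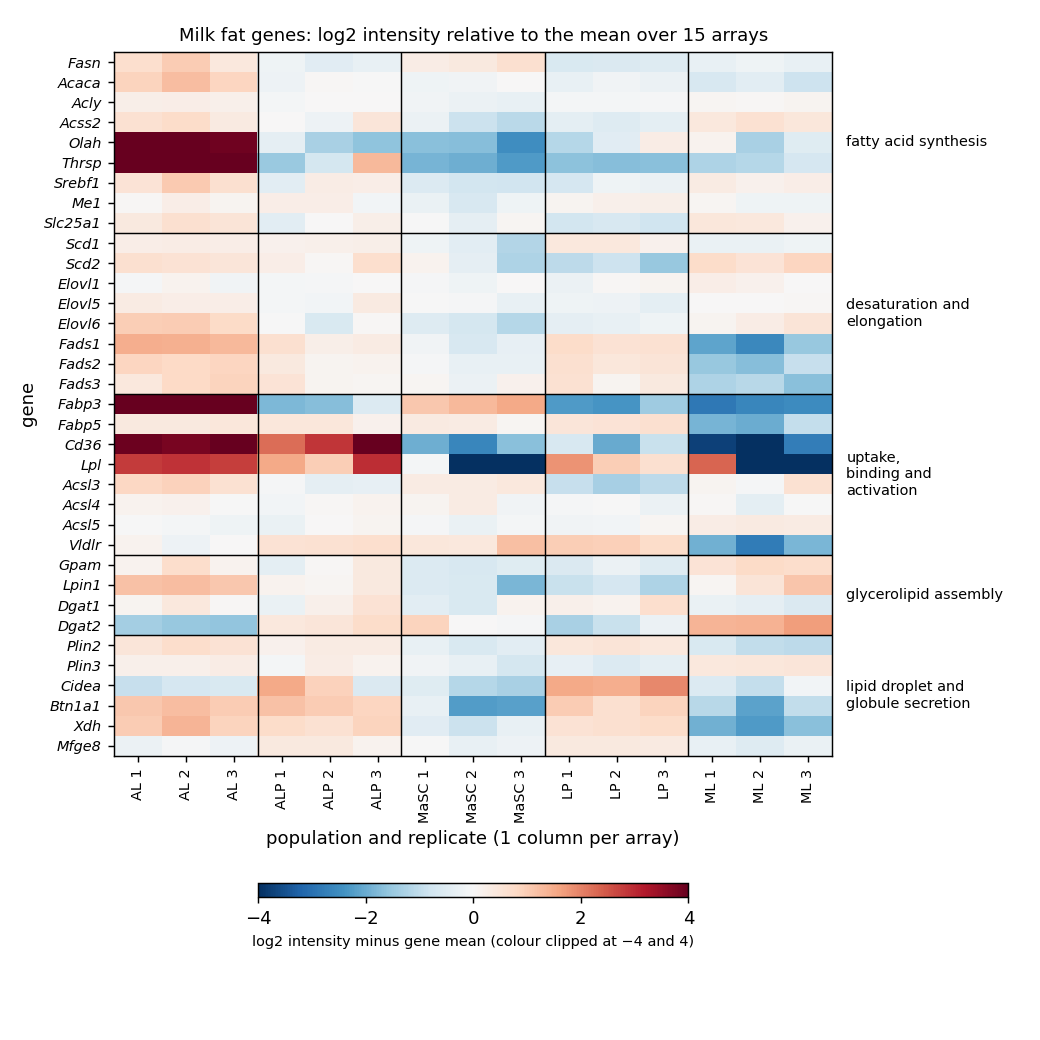
Heat map of the 35 milk fat genes (rows, grouped by role) in the 15 arrays (columns, in order AL, ALP, MaSC, LP and ML), coloured by log2 intensity minus the mean of the gene over all arrays, with the colour clipped at 4 log2 units. Thrsp, Olah and Fabp3 are red in the 3 AL arrays, and Fads1, Fabp5, Vldlr and Xdh are blue in the 3 ML arrays, while Dgat2 is blue in AL and red in ML.

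The AL population was compared with each virgin population by limma. Against LP, 18 milk fat genes were higher in AL and 3 lower, where 21.3% of all genes tested were higher and 24.2% lower. The median log2 difference was 0.55 over the 35 genes and -0.03 over all genes tested. Against ML, 18 were higher and 2 lower (28.7% and 24.8% of all genes), with medians of 0.60 and 0.03. Against MaSC, 25 were higher and 2 lower (31.3% and 28.1% of all genes), with medians of 0.87 and 0.05. Against ALP, 14 were higher and 3 lower (18.7% and 21.2% of all genes), with medians of 0.32 and -0.02. These 4 comparisons share the AL arrays.

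By role, 8 of the 18 genes higher in AL than in LP were synthesis genes. In AL against LP, 8 of the 9 synthesis genes were higher, with a median log2 difference of 1.21, as were 4 of 8 for desaturation and elongation (0.44), 2 of 4 for glycerolipid assembly (0.31), 3 of 8 for uptake and activation (0.95) and 1 of 6 for droplet and secretion (0.20). These are counts, and no test compared the roles. Against ML the median was highest for uptake and activation, at 2.09, with 6 of 8 genes higher, and was 0.49 for synthesis, with 4 of 9 higher.

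**Figure D2:**
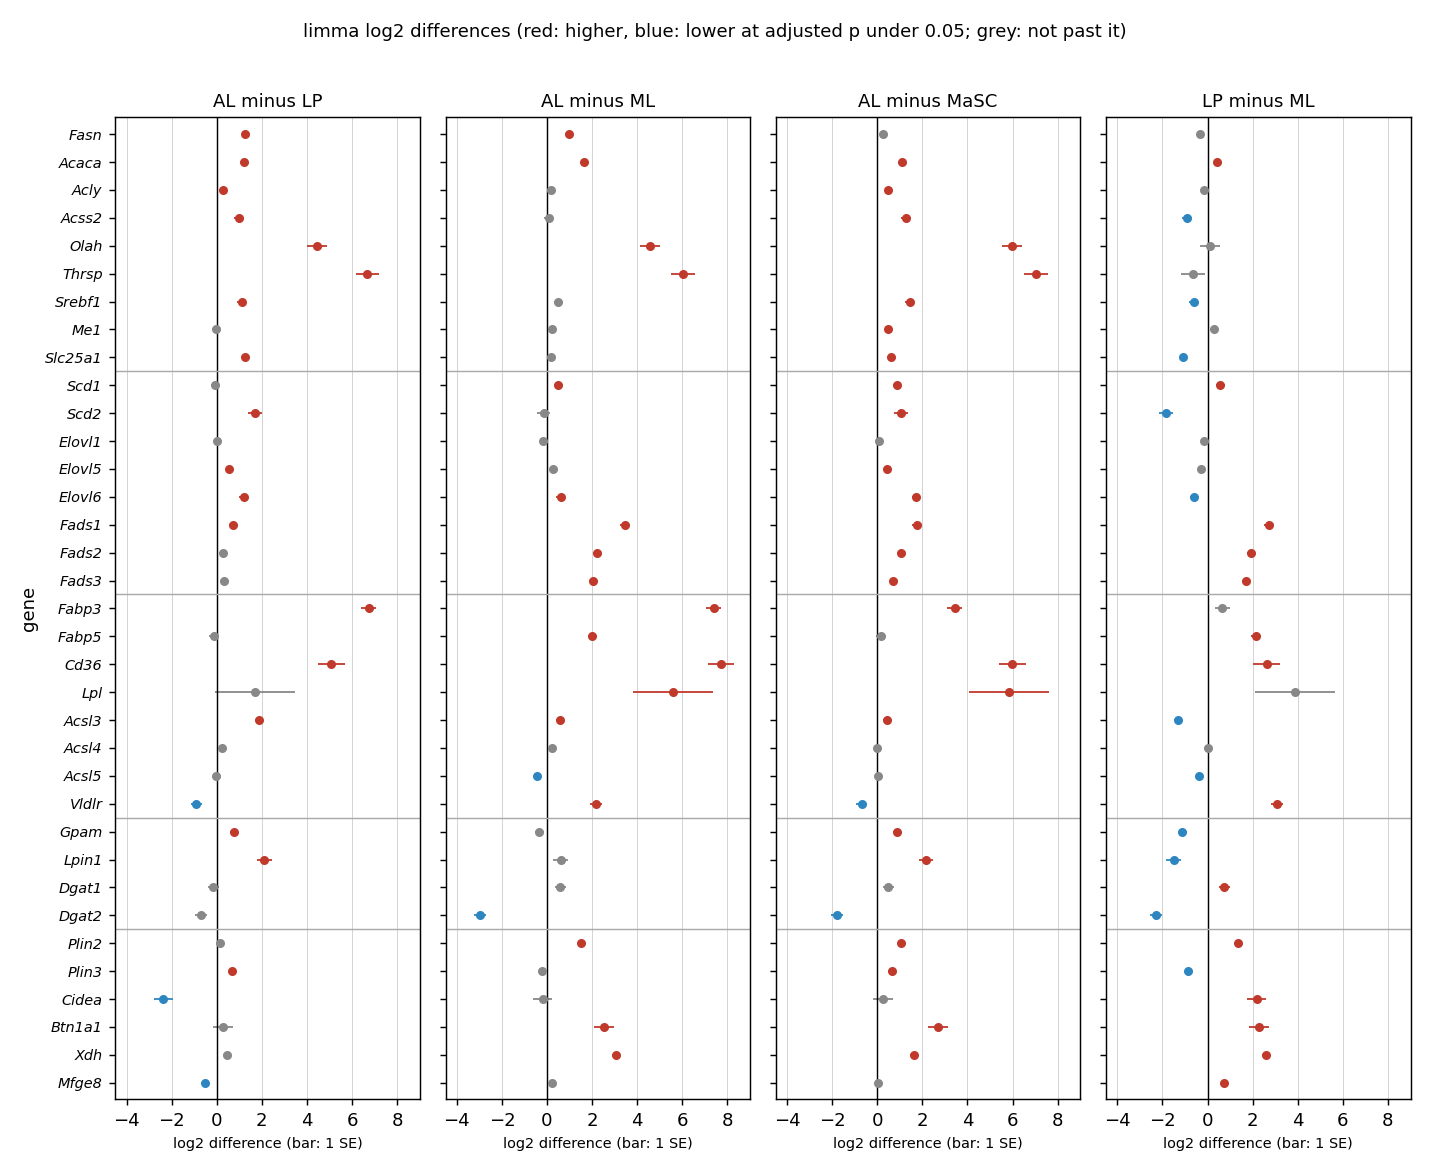
Log2 differences with 1 SE for the 35 genes (rows, grouped by role) in 4 comparisons (panels, each named as the first population minus the second). Red points passed limma's test upward, blue points downward and grey points did not pass; the 3 points farthest right in AL minus LP are Fabp3, Thrsp and Cd36, with log2 differences of 6.74, 6.68 and 5.08.

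Fabp3, Thrsp and Olah set AL apart most widely among the genes whose AL arrays did not overlap with any other. Thrsp, a small nuclear protein that promotes lipogenesis, had intensities of 5817, 9392 and 5739 in AL, against 74.6, 128 and 519 in ALP, 57.8, 54 and 43.8 in MaSC, 67.4, 64.8 and 66.1 in LP, with 88.8, 94.7 and 132 in ML. It was high in AL and below the array median in 11 of the 12 other arrays, ALP replicate 3 being the exception. A gene was tested only if at least 3 of 15 arrays lay above the array median, so Thrsp was tested only because of AL. Its p-values therefore carry no separate support. Thrsp was higher in AL than in LP by 103-fold (log2 difference 6.68, SE 0.52, adjusted p = 3.61e-06) and higher than in ALP by 39.9-fold (adjusted p = 2.05e-05). The difference from ALP was 26.4-fold without ALP replicate 1 and 69.6-fold without ALP replicate 3. Olah, the thioesterase that ends chain growth on fatty acid synthase early and releases medium-chain fatty acids, had 4161, 4376 and 3737 in AL, against 197, 102 and 83.3 in ALP, 79.4, 76.9 and 45 in MaSC, 115, 184 and 311 in LP, with 277, 102 and 180.3 in ML. All AL arrays were far above all virgin arrays. Olah was higher in AL than in LP by 21.8-fold (log2 difference 4.44, SE 0.44, adjusted p = 1.81e-05) and than in MaSC by 62.8-fold (adjusted p = 1.13e-06), and its other passing probe set gave a log2 difference of 4.74 against LP.

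Fabp3, the heart-type fatty acid binding protein that is also abundant in the lactating gland, had 10485, 13791 and 8467 in AL, against 115, 124 and 278 in ALP, 847, 995 and 1143 in MaSC, 84, 79.1 and 151 in LP, with 56, 66.5 and 70.4 in ML. All AL arrays were above all others, and MaSC stood between AL and the other virgin populations. It was higher in AL than in LP by 107-fold (log2 difference 6.74, SE 0.34, adjusted p = 3.38e-07), than in ML by 167-fold (adjusted p = 5.53e-08) and than in MaSC by 10.8-fold (adjusted p = 7.46e-06). A second, much dimmer probe set of Fabp3 gave a log2 difference of only 0.35 against LP, which did not pass. In LP these 3 genes had 64.8 to 311 intensity units where array medians were 158.4 to 165.7, and the size of the folds then depends on how background was treated, which the sources used here do not give. With 16 units added to each intensity before taking log2, the difference of AL from LP was 91.8-fold for Fabp3, 82.9-fold for Thrsp and 20.01-fold for Olah.

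The sequences upstream of these 3 genes and of Fasn are shown because Fabp3, Thrsp and Olah moved together in AL while Fasn, the synthase on which Olah acts, moved much less. Each is the 250 bases before the transcript start that RefSeq gives in GRCm38.p6, printed 5′ to 3′ on the strand of the gene. Capitals mark matches to 5 motifs searched on both strands, which were TCACNCCAC (the core of a sterol response element), CACGTG (an E-box), CCAAT (bound by NF-Y), TTCNNNGAA (bound by Stat5) and AGGAAG (an ETS core). The windows lie at chr7:97417551-97417800 on the minus strand, chr2:3366570-3366819 on the minus strand, chr4:130308488-130308737 on the plus strand and chr11:120824548-120824797 on the minus strand.
Thrsp: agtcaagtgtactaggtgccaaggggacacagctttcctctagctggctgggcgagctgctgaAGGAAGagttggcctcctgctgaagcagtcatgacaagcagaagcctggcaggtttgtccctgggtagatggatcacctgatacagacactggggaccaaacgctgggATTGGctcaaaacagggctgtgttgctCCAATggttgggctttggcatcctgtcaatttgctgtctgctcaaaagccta
Olah: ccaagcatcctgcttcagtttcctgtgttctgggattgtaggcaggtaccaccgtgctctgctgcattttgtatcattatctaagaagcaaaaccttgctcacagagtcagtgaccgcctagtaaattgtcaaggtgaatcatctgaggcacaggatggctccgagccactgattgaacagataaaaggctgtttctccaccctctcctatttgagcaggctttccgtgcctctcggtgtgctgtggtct
Fabp3: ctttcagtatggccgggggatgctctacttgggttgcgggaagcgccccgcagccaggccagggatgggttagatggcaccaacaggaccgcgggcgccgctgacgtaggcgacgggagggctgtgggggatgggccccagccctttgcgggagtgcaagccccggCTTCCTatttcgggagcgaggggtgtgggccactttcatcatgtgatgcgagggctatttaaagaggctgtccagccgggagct
Fasn: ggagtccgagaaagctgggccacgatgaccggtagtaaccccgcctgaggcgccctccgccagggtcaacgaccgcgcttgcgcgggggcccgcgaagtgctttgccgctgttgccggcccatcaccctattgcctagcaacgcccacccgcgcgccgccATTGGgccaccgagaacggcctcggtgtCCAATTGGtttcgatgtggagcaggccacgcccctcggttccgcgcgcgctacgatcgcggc

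Counted from the start site to the first base of the match, Thrsp had CCAAT at 79 and 52 bases and AGGAAG at 187 bases upstream, Fabp3 had AGGAAG at 84 bases, and Fasn had CCAAT at 90, 62 and 59 bases, of which the last pair lie on opposite strands and overlap. The Olah window held none of the 5. Of the 36 genes, 26 had such a window. CCAAT was in 14 of the 26 (53.8%) and in 34.5% of the windows of all 27025 genes in the table, of the same length, AGGAAG in 13 (50%) and 29.2%, and CACGTG in 2 (7.69%) and 6.05%. TCACNCCAC and TTCNNNGAA were in none of the 26 and in 1.04% and 7.18% of all windows. A match is a run of letters and not a site shown to be bound, and a window without one says nothing of the factor.

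The core lipogenic enzymes were higher in AL by smaller factors. Fasn, which builds palmitate, had 4858, 6118 and 4103 in AL, against 2723, 2216 and 2475 in ALP, 3716, 4013 and 4788 in MaSC, 1985, 2035 and 2158 in LP, with 2469, 2742 and 2464 in ML. The AL arrays were above those of ALP, LP and ML and overlapped with those of MaSC. The gene rose in AL by 2.41-fold (log2 difference 1.27, SE 0.14, adjusted p = 4.03e-05) against LP and by 1.94-fold (adjusted p = 0.000166) against ML, while the difference from MaSC did not pass (log2 difference 0.26, adjusted p = 0.14). Acaca, which makes malonyl-CoA, had 4083, 5218 and 4032 in AL, against 1240.1 to 2305 over the 12 other arrays. It was higher in AL by 2.05-fold against ALP (adjusted p = 0.0001), 2.13-fold against MaSC (2.88e-05), 2.32-fold against LP (2.75e-05) and 3.1-fold against ML (1.50e-06).

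Of the genes that feed the synthase, Acly, which splits citrate into acetyl-CoA, was bright everywhere and had 11778, 12289.6 and 11632 in AL, against 8189.9 to 10807 over the other arrays. The AL arrays were the highest, but by only 1.23-fold (log2 difference 0.30, SE 0.07, adjusted p = 0.00352) against LP. Slc25a1, the mitochondrial citrate carrier, had 1266, 1506 and 1384 in AL, against 580.2, 623 and 560.5 in LP, and was 2.35-fold higher (adjusted p = 0.000121). Acss2, which activates acetate, had 1368, 1492 and 1146 in AL, against 685, 637 and 687 in LP, and was 1.98-fold higher (adjusted p = 0.00283). Neither Slc25a1 nor Acss2 passed against ML (log2 difference 0.17, adjusted p = 0.41 for Slc25a1, and log2 difference 0.07, adjusted p = 0.806 for Acss2). Me1, the cytosolic malic enzyme that supplies NADPH, did not pass against LP (log2 difference -0.05, adjusted p = 0.798). Srebf1, the transcription factor that drives many lipogenic genes, had 4118, 5707 and 4374 in AL, against 1735, 2474 and 2388 in LP, 3475, 3169 and 3336 in ML and 1912, 1664 and 1654 in MaSC. It rose by 2.16-fold against LP (adjusted p = 0.00102) and 2.69-fold against MaSC (0.000103), and against ML the difference fell just short (log2 difference 0.49, adjusted p = 0.0561).

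**Figure D3:**
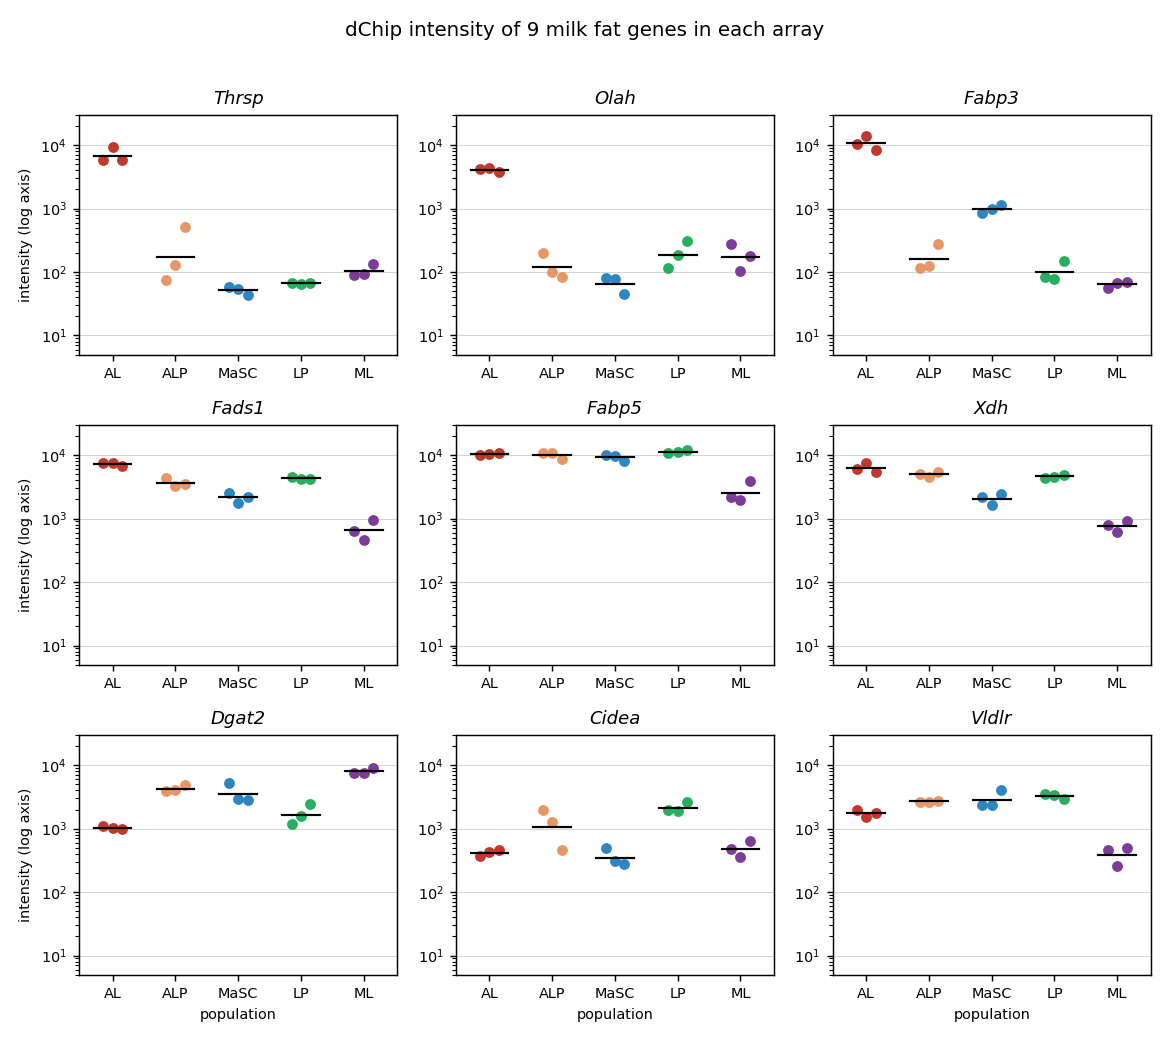
Intensity (log axis) of 9 milk fat genes in each array, with 1 point per array and a black bar at the geometric mean of the 3 arrays of a population, in the order AL, ALP, MaSC, LP and ML. Thrsp, Olah and Fabp3 are highest in AL, Fads1, Fabp5, Xdh and Vldlr are lowest in ML, Dgat2 is lowest in AL and highest in ML, and Cidea is highest in LP and in 2 of the 3 ALP arrays.

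Fads1 and Fads2, the front-end desaturases of polyunsaturated fatty acids, and the related gene Fads3 were high in AL and low in ML. Fads1 had 7491, 7445 and 6742 in AL, against 4336, 3265 and 3498 in ALP, 2522, 1786 and 2212 in MaSC, 4579, 4165 and 4205 in LP, with 636, 458 and 956 in ML. No AL array overlapped with another population and no ML array did either. Fads1 was higher in AL by 1.67-fold against LP (adjusted p = 0.017) and 11-fold against ML (3.78e-07), and higher in LP than in ML by 6.6-fold (5.41e-06). Fads2 had 7844, 7469 and 7865 in AL, against 1510.1, 1319.7 and 2305 in ML and 6786, 5981 and 6271 in LP, and Fads3 had 1552, 2002 and 2135 in AL, against 486, 532 and 362 in ML and 1742, 1244 and 1508 in LP. Against ML they rose in AL by 4.65-fold (adjusted p = 1.36e-06) and 4.14-fold (6.16e-06), and neither passed against LP (log2 difference 0.29, adjusted p = 0.196 for Fads2, and log2 difference 0.34, adjusted p = 0.176 for Fads3).

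The stearoyl-CoA desaturases, which place the double bond of oleate, differed from each other in pattern. Scd1 was among the brightest genes, with 13498, 13620.4 and 13254 in AL, against 14977, 14855 and 12559 in LP, 9181, 9328 and 9878 in ML and 9897, 8238 and 4909.6 in MaSC, and did not pass between AL and LP (log2 difference -0.07, adjusted p = 0.801). Its dimmer probe set gave larger differences, with a log2 difference of 4.55 between AL and MaSC where the brighter gave 0.87. Scd2 had 6265, 5884 and 5559 in AL, against 1928, 2244 and 1386 in LP and 6672, 5819 and 7163 in ML. LP stood apart from both. Scd2 was higher in AL than in LP by 3.25-fold (adjusted p = 0.000774) and lower in LP than in ML by 3.59-fold (0.000422). Of the elongases, Elovl6, which extends palmitate, had 2988, 3049 and 2559 in AL, against 676 to 2163 over the other arrays, and was 2.3-fold higher in AL than in LP (adjusted p = 0.000553). Elovl5, an elongase of polyunsaturated chains, was 1.46-fold higher in AL than in LP (0.00404), and Elovl1, which acts on very long chains, passed in none of the 7 comparisons on its brightest probe set, with intensities of 6376 to 8936.

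Cd36 and Lpl, the fatty acid translocase and the lipase that frees fatty acids from circulating lipoproteins, were high in AL. Cd36 had 3018, 2777 and 3290.5 in AL, against 951, 1444 and 4144 in ALP, 51.6, 32.6 and 63.3 in MaSC, 129, 50 and 109 in LP, with 15.1, 6.7 and 29.2 in ML. Both YFP-marked populations were above the other populations in every array, and AL overlapped with ALP. Cd36 was higher in AL than in LP by 33.9-fold (log2 difference 5.08, SE 0.60, adjusted p = 5.47e-05) and higher in ALP than in LP by 20.04-fold (adjusted p = 0.00286), which was 13.2-fold without ALP replicate 3. The difference between AL and ALP did not pass (log2 difference 0.76, adjusted p = 0.337). Its levels in ML were near zero, so that the fold of AL over ML was 210.2-fold (adjusted p = 1.34e-06) on the values as given and 95.7-fold with 16 units added.

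Lpl had 9268, 9853 and 9060.4 in AL, against 3816, 2624 and 10289 in ALP, 1263, 47.6 and 71.1 in MaSC, 4571, 2624 and 2084 in LP, with 6696, 27.9 and 41 in ML. The AL arrays were alike, whereas ML and MaSC each held 1 array, replicate 1 in both, far above the other pair, and replicate 1 was also the highest of LP. The fitted fold of AL was 47.6-fold over ML (adjusted p = 0.0193) and 57.8-fold over MaSC (0.0136). All AL arrays lay above all LP arrays, but that difference did not pass (log2 difference 1.68, SE 1.77, adjusted p = 0.464). Its SE is pooled over all 15 arrays, including the outlying replicate 1 of ML and of MaSC. Against ML the fold was 277-fold without ML replicate 1, and 17.9-fold and 21.7-fold without ML replicate 2 and replicate 3, neither of which passed (limma adjusted p = 0.0859 and 0.0786). Against MaSC it was 161-fold without MaSC replicate 1, 31.3-fold without MaSC replicate 2, which did not pass (limma adjusted p = 0.0546), and 38.3-fold without MaSC replicate 3. No source used here states whether a replicate number marks 1 cell suspension.

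Cd36 and Lpl are also genes of endothelial cells, fat cells and macrophages, so markers of these cells are given beside them. For markers whose AL arrays lay above all LP arrays, no share over all genes was counted. By limma, 6 of 11 endothelial, 1 of 4 adipocyte and 2 of 9 leukocyte markers tested were higher in AL than in LP, and 0 lower. Of all genes tested, 21.3% were higher and 24.2% lower. Gpihbp1, counted among the endothelial markers here and against ML below, was tested only because of its AL arrays. Its p-values therefore carry no separate support, and the other markers were not checked for this. Of 14 endothelial markers, 10 were above all LP arrays in all 3 AL arrays, and their summed intensity was 2915 to 3741 in AL, 4775 to 37310 in ALP, 1194 to 1654 in MaSC, 1610 to 2174 in LP, with 2932 to 4216 in ML. Pecam1, which encodes the endothelial antigen CD31 used in the lineage gate, had 70.5, 71.8 and 103 in AL, against 110.5, 250.0 and 928 in ALP and 12.6 to 32.2 in the other populations, and Gpihbp1, the endothelial anchor of lipoprotein lipase, had 185, 252 and 224 in AL, against 82.8, 141 and 2054 in ALP and 8.5 to 20.9 elsewhere. Other endothelial markers went the other way. Eng had means of 157 in AL and 1135 in ML, and Tek of 248 in AL and 544 in LP. By limma, 7 of the 11 endothelial markers tested were higher and 1 lower in AL than in ML (28.7% and 24.8% of all genes tested). Of 14 adipocyte markers, 3 were above all LP arrays in all 3 AL arrays, with sums of 6454 to 7027 in AL, 7588 to 17180 in ALP, 2530 to 2895 in MaSC, 1758 to 2215 in LP, with 1731 to 2006 in ML. Most of the AL sum was Fabp4, with 4633, 5226 and 5018 in AL, against 6074, 9633 and 13864 in ALP and 1023, 418 and 675 in LP, while Adipoq, the defining fat cell hormone, was at 37.9 to 49.2 in AL, against 21.4 to 49.6 in MaSC, LP and ML, and reached 308 in ALP replicate 3. Of 15 leukocyte markers, 14 were above all LP arrays in all 3 AL arrays, with sums of 4354 to 6274 in AL, 2979 to 77760 in ALP, 1659 to 3315 in MaSC, 642 to 1456 in LP, with 774 to 1003 in ML. Ptprc, which encodes the leukocyte antigen CD45, had 77.9, 93.6 and 67.2 in AL, against 43.3, 58.8 and 2795 in ALP and 11.2 to 27.4 elsewhere, and the macrophage lysozyme Lyz2 had 729, 1150.0 and 699 in AL, against 404, 536 and 10979 in ALP and 63.4, 104 and 127 in LP. The part of endothelial cells, fat cells and leukocytes in Cd36 and Lpl was not tested. Sums of 15 fibroblast markers were 34210 to 47640 in AL, 54960 to 126000 in ALP and 44010 to 65900 in LP. In MaSC they were 10300 to 13830, and in ML 3838 to 10430. By limma, 13 were higher in AL than in ML (28.7% of all genes tested). Against MaSC, 10 were higher and 2 lower (31.3% and 28.1%), and against LP 0 were higher and 3 lower (21.3% and 24.2%). Against ALP, 0 were higher and 7 lower (18.7% and 21.2%). The part of fibroblasts in the differences of AL was not tested.

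**Figure D4:**
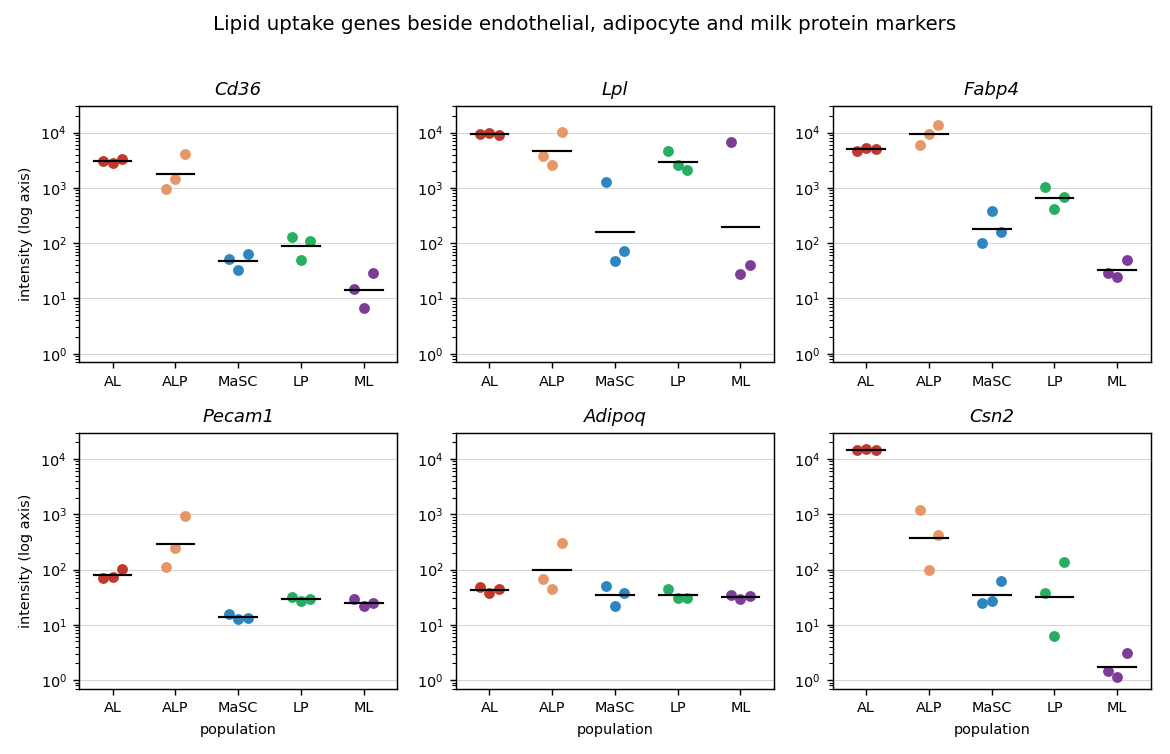
Intensity (log axis) of Cd36, Lpl and Fabp4, of the endothelial marker Pecam1, the fat cell marker Adipoq and the casein gene Csn2 in each array, with 1 point per array and a black bar at the geometric mean, in the order AL, ALP, MaSC, LP and ML. Cd36 and Fabp4 are high in both marked populations, Pecam1 is highest in ALP, and Adipoq is dim in AL and in all other arrays but ALP replicate 3.

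The remaining uptake genes separated ML or LP more than AL. Fabp5, the epidermal binding protein, had 10215, 10274 and 10654 in AL, against 10748, 11352 and 12095 in LP and 2150.4, 1971 and 3979 in ML. It was bright in all populations but ML, higher in AL than in ML by 4.05-fold (adjusted p = 1.18e-05) and higher in LP than in ML by 4.44-fold (1.83e-05). Vldlr, a receptor for lipoproteins, had 1949, 1521 and 1769 in AL, against 2588, 2668 and 2774 in ALP, 2378, 2341 and 4001 in MaSC, 3484, 3394 and 2915 in LP, with 460.3, 253 and 495 in ML. The AL arrays lay below every ALP, MaSC and LP array and above every ML array. Vldlr was lower in AL than in LP by 1.87-fold (adjusted p = 0.0121) and higher in AL than in ML by 4.5-fold (2.50e-05). All 6 of its probe sets passed in both comparisons, in the same directions. Its drop in AL against MaSC (log2 difference -0.70, adjusted p = 0.0317) did not pass without AL replicate 2, AL replicate 3 or MaSC replicate 3, with adjusted p up to 0.135, and in those 3 refits 1 gene in place of 2 was lower in AL than in MaSC.

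Acyl-CoA synthetases, which activate fatty acids, differed by member. Acsl3, found on nascent droplets, had 5005, 5240.2 and 4231 in AL, against 1466, 1109.8 and 1362 in LP, 2997, 2679 and 4217 in ML and 3502, 3487 and 3748 in MaSC, and was 3.69-fold higher in AL than in LP (adjusted p = 8.53e-06). Between AL and MaSC the brightest probe set was barely past the threshold (log2 difference 0.43, adjusted p = 0.0437), and its dimmest was lower in AL (log2 difference -0.95), so no direction is given there. Acsl5 was lower in AL than in ML by 1.34-fold (adjusted p = 0.00451), with 6036, 5762 and 5439.8 in AL, against 7514, 7897 and 7759 in ML. Acsl4 passed in none of the 7 comparisons on its brightest probe set, while a dimmer one gave a log2 difference of 2.10 between AL and LP, which passed.

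Triacylglycerol assembly held the 1 gene that was lowest in AL. Dgat2, which joins the last fatty acid to diacylglycerol, had 1116, 1008 and 969.8 in AL, against 3848, 4043 and 4822 in ALP, 5318, 2948 and 2786 in MaSC, 1174, 1576 and 2433 in LP, with 7403, 7616 and 9127 in ML. All AL arrays were below all others, narrowly for LP replicate 1, and all ML arrays were above all others. Dgat2 was lower in AL than in ML by 7.78-fold (log2 difference -2.96, SE 0.27, adjusted p = 4.50e-06), than in ALP by 4.1-fold (adjusted p = 0.000152) and than in MaSC by 3.42-fold (0.000177), whereas the difference from LP did not pass (log2 difference -0.68, adjusted p = 0.0574). Its second probe set gave log2 differences of -3.63 against ML and -1.45 against MaSC, both of which passed. With the arrays centred on their medians, or with the mean of the probe sets or the second probe set, the AL arrays no longer lay below all others.

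Dgat1, the other enzyme of this step, had 1774, 2194 and 1678 in AL, against 1883, 1818 and 2595 in LP and 1366, 1267 and 1087 in ML, and passed in none of the 4 comparisons with AL. A dimmer probe set of Dgat1 was lower in AL than in LP (log2 difference -1.20) and passed. Lpin1, a phosphatidate phosphatase, had 3068, 3232 and 2907 in AL, against 738, 847 and 574 in LP, 926, 888 and 386 in MaSC and 1452, 1942 and 2927 in ML. It was higher in AL than in LP by 4.31-fold (adjusted p = 0.000315) and than in MaSC by 4.49-fold (0.000145), and its overlap with ML left no call there (log2 difference 0.60, adjusted p = 0.134). Gpam, which adds the first fatty acid to glycerol phosphate, had 2042, 3002 and 2055 in AL, against 1249, 1577 and 1291 in LP and 2692, 3174 and 3021 in ML, and was 1.7-fold higher in AL than in LP (adjusted p = 0.00759).

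Of the 6 droplet and globule genes, 1 was higher and 2 lower in AL than in LP (21.3% and 24.2% of all genes tested), and 3 were higher in AL than in ML (28.7%). Plin2, the main coat protein of the droplets, had 12276, 14296 and 13057 in AL, against 12056, 12349 and 11686 in LP and 5663, 4391 and 4194 in ML. AL and LP overlapped (log2 difference 0.13, adjusted p = 0.392), and Plin2 was higher in AL than in ML by 2.8-fold (adjusted p = 1.80e-06) and in LP than in ML by 2.56-fold (9.87e-06). Xdh, the membrane partner of butyrophilin, had 6018, 7614 and 5514 in AL, against 4966, 4529 and 5427 in ALP, 2154, 1626 and 2416 in MaSC, 4408, 4582 and 4902 in LP, with 782, 609 and 927 in ML. The AL arrays were above all others, but the difference from LP did not pass (log2 difference 0.45, adjusted p = 0.0599), and that from ML was 8.3-fold (adjusted p = 2.29e-07).

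Btn1a1, which encodes butyrophilin, had 8575, 9490.5 and 8195 in AL, against 8974, 8207 and 7255 in ALP, 3275, 861 and 889 in MaSC, 8153, 6293 and 7498 in LP, with 1851, 909.7 and 2014 in ML. AL, ALP and LP were bright and close together (log2 difference 0.26, adjusted p = 0.651 for AL against LP), and AL was 5.82-fold higher than ML (adjusted p = 0.000486). AL was also 6.43-fold higher than MaSC (0.0003), a fold of 9.99 without MaSC replicate 1. Its other probe sets, which are much dimmer, were higher in AL than in LP, with log2 differences of 1.63 and 2.39 that passed. The call for Btn1a1 against LP thus depends on the probe set.

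Cidea, a droplet protein that promotes lipid secretion in the mouse mammary gland, had 367, 428 and 455 in AL, against 1978, 1290.1 and 466 in ALP, 489, 311 and 279 in MaSC, 1971, 1885 and 2615 in LP, with 469, 354 and 633 in ML. It was high in LP and in 2 ALP arrays and low in AL, MaSC and ML. Cidea was lower in AL than in LP by 5.14-fold (log2 difference -2.36, SE 0.43, adjusted p = 0.00103), and did not pass between AL and ML (log2 difference -0.19, adjusted p = 0.738). Against ALP it was lower by 2.55-fold (adjusted p = 0.0261), by 3.85-fold without ALP replicate 3, and the call was lost without any 1 of the 3 AL arrays, ALP replicate 1 or ALP replicate 2 (adjusted p up to 0.0989). Mfge8, a secreted protein of the globule membrane, had 8759, 9924 and 9004 in AL, against 13479, 13468 and 11369 in ALP, 13567, 13611 and 13071 in LP and 8425, 7184 and 8516 in ML. It was lower in AL than in LP by 1.46-fold (adjusted p = 0.00152) and than in ALP by 1.38-fold (0.00442). Plin3, a coat protein of small droplets, was 1.58-fold higher in AL than in LP (0.00219).

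Within the Wap-Cre;R26Y genotype, the 14 genes higher in AL than in ALP comprised 7 of the 9 synthesis genes, 3 of 8 for desaturation and elongation, 2 of 8 for uptake and activation, and 1 each for glycerolipid assembly and for droplet and secretion. Besides those described, Elovl6 was 2.16-fold higher (adjusted p = 0.00108), Acsl3 2.05-fold (0.000579), Fasn 2.01-fold (0.000233) and Fads1 1.97-fold (0.00471). The calls for Srebf1, Slc25a1, Lpin1 and Plin2 were each lost without 1 or more single arrays, with adjusted p up to 0.0698, 0.0547, 0.0839 and 0.16 by limma. AL replicate 2 was among those arrays for all 4 genes, and without it 10 genes were higher in AL. By limma, 6 of 11 endothelial and 7 of 15 fibroblast markers were lower in AL than in ALP, and 0 higher. Of 6 hormone-sensing luminal markers, 4 were lower and 1 higher (21.2% and 18.7% of all genes tested). Of 9 leukocyte markers, 0 passed. The part of these cells in the differences between AL and ALP was not tested.

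The marked virgin cells were also compared with LP. In ALP against LP, 6 milk fat genes were higher and 0 lower, where 3.58% of all genes tested were higher and 3.95% lower, and at an unadjusted p under 0.05 limma gave 11 higher and 1 lower and the t-test named in the methods 8 higher and 3 lower. The 6 were Cd36, Scd2 (2.75-fold, adjusted p = 0.0155), Dgat2 (2.55-fold, 0.0146), Acsl3 (1.8-fold, 0.0139), Slc25a1 (1.57-fold, 0.0351) and Plin3 (1.46-fold, 0.0345). All but Cd36 were lost without at least 1 array. The count was 3 without ALP replicate 3, LP replicate 1 or LP replicate 3, 2 without LP replicate 2 and at most 9 otherwise, and 0 when only the arrays of ALP and LP were fitted. Scd2, Dgat2, Acsl3, Slc25a1 and Plin3 were also lower in LP than in ML, and the ML mean of each was above that of ALP. Sums of hormone-sensing luminal markers were 17150 to 25770 in ALP, 8574 to 13640 in LP and 33810 to 37980 in ML. Of 11 endothelial markers tested, 9 were higher in ALP than in LP (3.58% of all genes tested). The part of such cells in these calls was not tested. No source used here gives scan dates, so a batch confined to ALP cannot be told apart from that population.

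Basal cells of the virgin gland were set against both luminal subsets. In MaSC, set against LP and ML averaged, 7 milk fat genes were higher and 13 lower, where 22.6% of all genes tested were higher and 29.8% lower, and the median log2 difference was -0.23 over the 35 genes and -0.09 over all genes tested. These shares of the 35 genes, 20% higher and 37.1% lower, were near those of all genes. The t-test of the methods after Benjamini-Hochberg adjustment called 2 higher and 2 lower. It took the LP and ML arrays as 1 group, so its spread held the difference between LP and ML, which limma's did not. Fabp3 was higher in MaSC by 12.3-fold (log2 difference 3.62, SE 0.29, adjusted p = 4.10e-06), with no overlap between the MaSC arrays and those of LP or ML. Fasn was higher by 1.81-fold (adjusted p = 0.000198), Acsl3 by 1.74-fold (0.000846), Vldlr by 2.51-fold (0.000465) and Fabp5 by 1.72-fold (0.00408). For Vldlr, Fabp5, Cidea and Btn1a1 the mean of LP and ML joins bright LP arrays and dim ML arrays, and the MaSC arrays of Cidea and Btn1a1 overlapped with those of ML. Among the genes lower in MaSC were Olah, by 2.76-fold (adjusted p = 0.00736), Cidea, by 2.88-fold (0.00517), Elovl6, by 1.75-fold (0.00225), and Acly, by 1.18-fold (0.00476). Btn1a1 was lower by 2.43-fold (0.0144), and by 3.78-fold without MaSC replicate 1, and the call was lost without MaSC replicate 2 or 3 (adjusted p up to 0.0846).

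The virgin luminal subsets differed from each other in both directions. In LP against ML, 14 milk fat genes were higher and 11 lower, where 27.3% of all genes tested were higher and 21.7% lower. With the arrays centred on their medians these counts became 11 and 15. Higher in LP were 5 of the 6 droplet and secretion genes (median log2 difference 1.77), namely Xdh by 6.08-fold (adjusted p = 2.12e-06), Btn1a1 by 4.84-fold (0.00143), Cidea by 4.52-fold (0.00162), Plin2 and Mfge8. Vldlr was higher by 8.42-fold (5.52e-06), beside Fabp5 and the Fads genes given above. Cd36 was also higher in LP, by 6.2-fold (0.00373) and by 3.35-fold with 16 units added, at intensities below the array median in both, and another of its probe sets gave a log2 difference of 0.23 that did not pass.

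Lower in LP than in ML were 3 of the 4 glycerolipid genes (median -1.31), which were Dgat2 by 4.85-fold (adjusted p = 6.13e-05), Lpin1 by 2.84-fold (0.00252) and Gpam by 2.17-fold (0.000775). Of the other genes lower in LP, Acsl3 differed by 2.48-fold (9.47e-05), Slc25a1 by 2.1-fold (0.000302), Acss2 by 1.89-fold (0.00397) and Plin3 by 1.83-fold (0.00034). Calls for Elovl6, Scd1, Srebf1, Acaca and Dgat1 in this comparison were each lost without 2 or more single arrays, with adjusted p up to 0.104, all of them LP or ML arrays. Of 15 fibroblast markers, 14 were higher in LP than in ML (27.3% of all genes tested), with sums of 44010 to 65900 in LP, against 3838 to 10430 in ML. Their part in these differences was not tested.

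Genes around the route, from lists of neighbouring steps, were counted in the same fits, where 21.3% of all genes tested were higher and 24.2% lower in AL than in LP. Of 25 genes supplying NADPH, citrate and pyruvate, 15 were higher and 1 lower in AL than in LP, among them Pdk2, a kinase that restrains pyruvate dehydrogenase, by 4.3-fold (adjusted p = 6.93e-05), and the pyruvate dehydrogenase subunits Dlat by 1.9-fold (3.85e-05) and Pdhb by 1.56-fold (0.000311). Of 19 further genes of fatty acid synthesis and elongation, 9 were higher and 2 lower. Acot1, a cytosolic acyl-CoA thioesterase, was 5.34-fold higher (0.000312), Mecr, a reductase of mitochondrial fatty acid synthesis, 1.88-fold higher (3.99e-05) and Acot7, another thioesterase, 2.76-fold lower (2.33e-05). Of 17 further genes of glycerolipid assembly, 4 were higher and 6 lower, and Gpat3, which like Gpam starts triacylglycerol assembly, had 1659, 1993 and 1932 in AL, against 7451, 7237 and 7136 in LP, a 3.92-fold lower level (1.53e-06). Lpin2, a relative of Lpin1, was 2.34-fold lower (9.37e-05), and Etnk1, an ethanolamine kinase, 2.96-fold lower (4.92e-07). The share of higher genes in this list was close to that of all genes. Of 13 further genes of uptake and activation, 5 were higher and 1 lower, among them Lmf1, which matures lipases in the endoplasmic reticulum, by 2.64-fold (0.00017), besides Fabp4 (7.5-fold, 0.000611) and Gpihbp1 (16.6-fold, 0.00311). Outside AL, Gpihbp1 was above the array median only in ALP replicate 3, so it too was tested only because of AL.

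Fatty acid oxidation genes were higher in AL than in LP in 13 of 22 cases and lower in 1, led by Ehhadh, a peroxisomal enzyme, with 1034, 1419.8 and 944 in AL, against 126, 97.6 and 111 in LP (10.04-fold, adjusted p = 0.000126). Echs1 and Etfdh, of mitochondrial oxidation, were 2.00-fold (0.000195) and 1.75-fold higher (0.000325). In LP against ML, 13 of these 22 were lower, where 21.7% of all genes tested were. Of 14 further droplet and globule genes, 3 were higher and 2 lower in AL than in LP. Abcg2, a transporter of the apical membrane in the lactating gland, had 4617, 4305 and 3989.9 in AL, against 949.8, 754 and 801 in LP, and was 5.17-fold higher (0.000188). Pnpla2, a lipase of droplets, was 2.03-fold higher (0.000386), while Cav1, the caveolar coat protein, was 1.98-fold lower (0.00267). The share of higher genes in this list was near that of all genes. Of 29 regulators of lipogenesis, 10 were higher and 5 lower in AL than in LP. Ppargc1b, a coactivator of Srebf1 in mouse liver, was dim and had 228, 515 and 363 in AL, against 68.5, 62.7 and 70.3 in LP (5.21-fold, 7.26e-05), and Stat5a, the factor through which prolactin acts, was 1.58-fold higher (0.00108). Nfya, a subunit of the NF-Y factor that binds CCAAT, was 1.38-fold lower in AL than in LP (0.000288).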

How the data were processed

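RNA of sorted cells was amplified with the Ovation system and hybridised to Affymetrix Mouse Genome 430 2.0 arrays. The deposited values were linear intensities, 1 for each probe set on each array, after normalisation by the authors in dChip. No source used here gives its version, model or baseline array. Of 45101 probe sets, 34945 carried a single gene symbol. Those above the array median in at least 3 of 15 arrays were kept, and the one with the highest mean log2 intensity stood for its gene, which left 12143 genes. A floor of 1 was applied before log2.

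With limma 3.58.1 (lmFit, eBayes; R 4.3.3), 1 mean per population was estimated from the 15 arrays together, for 7 two-sided comparisons and a moderated F test. P-values were adjusted by Benjamini-Hochberg over all genes tested, and a gene was called higher or lower at an adjusted p under 0.05. The script was tested on simulated data. Folds are antilogs of log2 differences, and SE is on the log2 scale. Results for other probe sets come from a fit of all 22143 passing probe sets. The number of arrays limits the precision.

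Of the 36 genes listed, the 35 with a probe set of their own were analysed. For AL against LP, up to 3 called genes per neighbouring list were named by the largest absolute moderated t. The genes, lists and tests were chosen with earlier results of these data known. Alternatives comprised other scalings, filters, probe set rules, variance models, the t-test that the methods name, a replicate block and leaving out each array.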

Additional observations from a re-analysis of the deposited data

How the results depend on the processing

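Over the 7 comparisons, 136 calls of a milk fat gene were made. All 136 kept their direction and call with 16 units added or a stricter filter, 135 with a trended robust variance, 133 after quantile normalisation, 132 with array weights, 131 without a filter, 125 with arrays centred on their medians, 123 when only the arrays compared were fitted and 112 of 113 without the ALP arrays. The mean of all passing probe sets kept 130 and the second brightest probe set, an alternative chosen after seeing the data, 123. Direction turned for Acsl3 in AL against MaSC with the mean of probe sets (log2 difference -0.0634, adjusted p = 0.778) and for Fads3 in AL against MaSC with the second brightest (-0.0472, adjusted p = 0.883). The methods' t-test kept 117 at its threshold and 103 after Benjamini-Hochberg. Asking for a difference of at least 2-fold as well kept 78.

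Some counts moved by more than 1.5 times, and the cause was not tested beyond what each alternative does by construction. With arrays centred on their medians, genes lower in AL were 4 against ML, 1 against MaSC and 1 against ALP, and 0 had all AL arrays below the rest. With the mean of probe sets or the second brightest, 5 were lower in AL against ALP and 0 lay below the rest. Genes higher in ALP than in LP were 0 when only those arrays were fitted and 10 with array weights, which also gave 2 lower. With the 2-fold limit, genes lower in AL were 1 against LP, 1 against ML and 1 against MaSC, genes higher in AL were 16 against MaSC and 7 against ALP, 3 were higher in ALP than in LP, 2 were higher and 3 lower in MaSC, and 6 were lower in LP than in ML. The methods' t-test after Benjamini-Hochberg gave 1 lower in AL against MaSC, 0 higher in ALP against LP, and 2 higher and 2 lower in MaSC. Unadjusted, it gave 1 lower in AL against MaSC, 3 lower in ALP against LP, and 2 higher and 6 lower in MaSC. In the MaSC comparison this t-test took the LP and ML arrays as 1 group, so its spread held the difference between LP and ML.

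Leaving out 1 array at a time, 106 of the 136 calls were never lost and 30 were lost at least once, none of these 30 in AL against LP. Genes higher in ALP than in LP ranged from 2 to 9, genes lower there from 0 to 1, and genes lower in AL than in MaSC from 1 to 2. Genes higher in AL ranged from 18 to 19 against LP and from 14 to 21 against ML.

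Centring shifted the median log2 difference of all genes to 0.07 in AL against LP, -0.11 in AL against ML, 0.14 in AL against MaSC, 0.26 in AL against ALP, -0.19 in ALP against LP, -0.20 in MaSC against LP and ML, and -0.20 in LP against ML. The share of higher genes among all genes called then became 60.1% in place of 46.9% in AL against LP, 41% in place of 53.7% in AL against ML, 73.9% in place of 46.9% in AL against ALP, 28.4% in place of 47.5% in ALP against LP, 31.2% in place of 43.2% in MaSC against LP and ML, and 30.3% in place of 55.7% in LP against ML. Quantile normalisation gave 59.9% in AL against ALP, 37.3% in ALP against LP and 45.6% in LP against ML.

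Arrays of MaSC, LP and ML came from 3 shared suspensions. Their deviations from population means correlated across genes at -0.01 to 0.17 between same-numbered arrays and -0.125 to 0.079 between different-numbered ones. Other same-numbered pairs were at -0.23 to 0.21. The numbers were not taken to pair arrays in the main fit, and whether they do was not settled. A replicate block over all 15 arrays kept 132 of the 136 calls, and a replicate block within the 9 MaSC, LP and ML arrays kept 40 of 45. Detection calls were not analysed here, so dim levels such as Cd36 in ML have no stated background. Of 24 genes with several passing probe sets, the calls of all of them were the same in 16 to 23 over the 7 comparisons, with 17 in AL against LP. Opposite calls were found for Acly in AL against ML, where a dim probe set was lower (log2 difference -0.65, adjusted p = 0.024) and 2 others higher, and for Acsl3 in AL against MaSC.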
